A study of Xenopus laevis with 6 samples.

Results

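In Xenopus eggs a set of maternal RNAs is held at the vegetal pole, the part of the egg that becomes endoderm and that also carries the germ plasm. The RNAs described here are trim36, plin2, pcsk6, bicc1, zfp36l2, vegt and wnt11b. They were chosen by name: every gene model whose symbol was one of 9 vegetally localized RNAs was taken, from both tables of the series. The tables hold counts of the same libraries on annotations named v9.1 and v7.1, so their agreement is not independent evidence. The rule found 19 gene models of 7 symbols, 7 of 10364 gene models in v9.1 and 12 of 7902 in v7.1. pcsk6, bicc1, zfp36l2 and wnt11b had gene models in both tables, and trim36, plin2 and vegt were taken from v7.1 alone. gdf1 and dand5 were not analysed here, nor were trim36, plin2 and vegt in v9.1.

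The study measured RNA of primordial germ cells (PGCs), the embryonic precursors of eggs and sperm, and of endoderm cells isolated from stage-matched Xenopus laevis embryos at stages 12 to 14. No strain, genotype or treatment is given for either group in the labels. Each cell type has 3 libraries, prepared after ribosomal RNA was depleted. The labels describe 3 library aliquots of each depleted sample. The p-values therefore cover the variation among libraries alone, and that variation may be technical.

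Vegetal localization takes place during oogenesis. An early route carries RNAs with the mitochondrial cloud into the germ plasm, and a later route moves others along microtubules to the vegetal cortex, where RNA-binding proteins and kinesin motors take part. The cells that inherit the vegetal cytoplasm form endoderm, and the few that inherit germ plasm become PGCs. Several of these RNAs act before or soon after fertilization: trim36 and plin2 in cortical rotation, wnt11b in dorsal axis formation, vegt in starting endoderm and mesoderm, and pcsk6 in processing growth factor precursors such as that of gdf1. Xenopus laevis is allotetraploid, and many of its genes have a pair of closely related copies named L and S, called homeologs.

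The labels were compared with marker genes, which were chosen with earlier results of these data known. In v9.1 the 5 PGC symbols nanos1, dazl, ddx25, grip2 and dnd1 had 6 gene models, all 6 of them higher in PGCs, and their summed level was 134895 to 136498 CPM in PGC libraries and 631 to 684 CPM in endoderm libraries. The 10 gene models of 5 endoderm symbols (sox17a, gata4, gata6, mixer and foxa2) summed to 2932 to 3164 CPM in endoderm and 2158 to 2339 CPM in PGC libraries, with 6 lower and 3 higher in PGCs. Mesoderm markers (7 gene models of 3 of 8 listed symbols) summed to 68.8 to 117 CPM in endoderm and 137 to 179 CPM in PGC libraries, and ectoderm and neural markers (7 gene models of 4 of 8 symbols) to 181 to 219 and 306 to 330 CPM. No marker symbol found was at 0 in either group. The part of these other cell types in the results below was not tested. Total counts were 9.94 to 28.3 M per library in v9.1 and 8.59 to 24.6 M in v7.1, with endoderm replicate 3 the shallowest.

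Most of these RNAs were higher in PGCs, and zfp36l2 was lower. In v7.1, 10 of the 12 gene models were higher in PGCs and 2 were lower, where 12.8% of all gene models in that table were higher and 16.1% were lower (28.9% in either direction). These 12 are not all separate genes. Both pcsk6 gene models share 1 JGI model name, and so does a pair of the bicc1 gene models. In v9.1, 4 of the 7 gene models were higher, 2 were lower and 1 missed the threshold, against 12.6% higher and 16.8% lower over the whole table (29.3% in either direction). The calls are edgeR quasi-likelihood tests with Benjamini-Hochberg adjustment over the whole table at 0.05. All whole-table shares given here and below are of this main test. Where list counts are given under another scaling, the calls of the whole v9.1 table moved too, as listed in the last section. The libraries of the groups did not overlap for any of the 19 gene models: PGC libraries were all above endoderm libraries in 10 of 12 and 5 of 7, and all below in 2 of 12 and 2 of 7. Over the whole tables such separation was seen in 23.5% (above) and 23.0% (below) of v7.1 gene models and in 24.5% and 23.7% of v9.1 gene models. The median log2 fold change of the members was 4.28 in v7.1 and 1.51 in v9.1, and that of all gene models was 0.06 and 0.07. In bulk RNA, fewer cells that contain an RNA and less of it per cell cannot be told apart. Levels are in CPM (counts per M of the TMM-scaled library size), with the SD over n = 3 libraries. CPM are not divided by transcript length, so levels are compared within a gene model and never between genes.

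**Figure D1:**
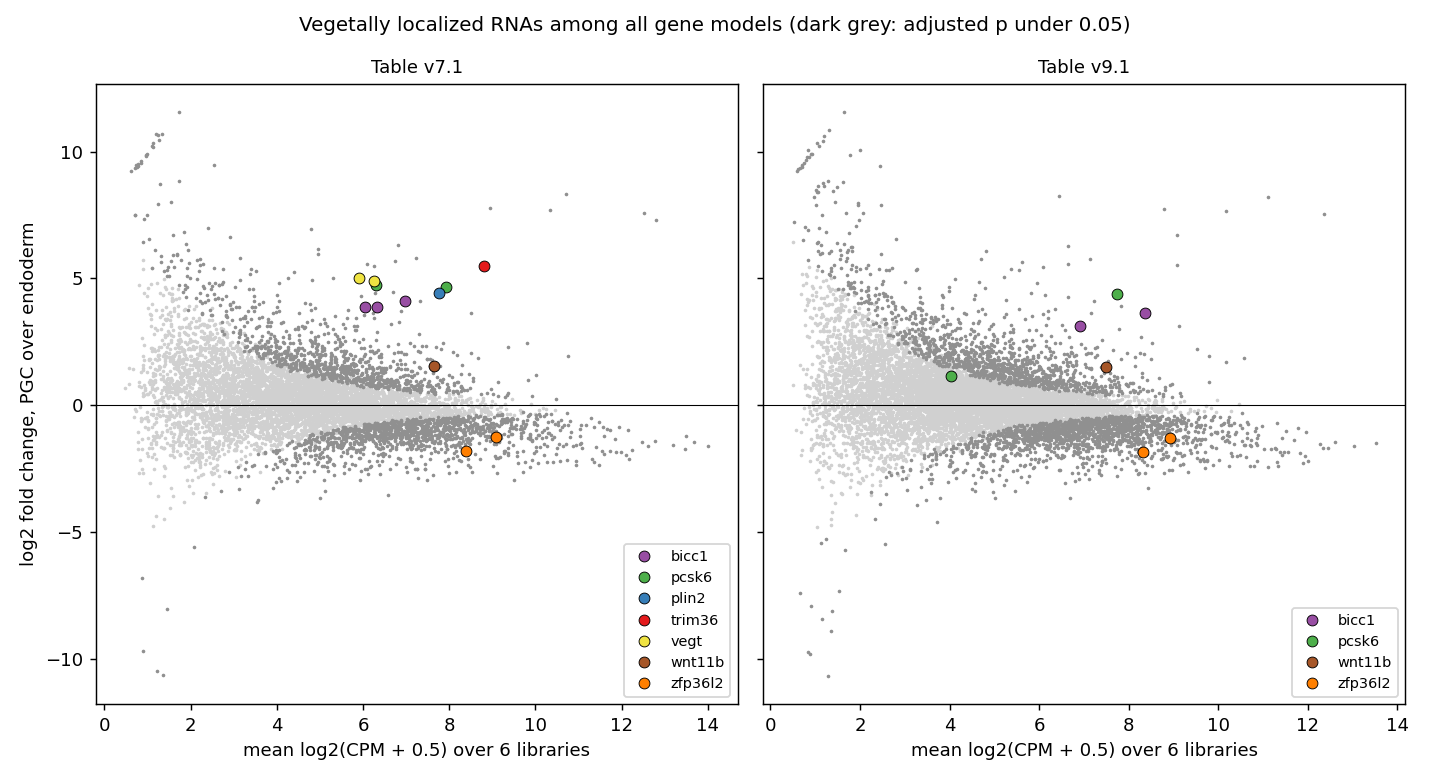
Each grey point is a gene model, with the mean log2(CPM + 0.5) over the 6 libraries on the x axis and the log2 fold change of PGC over endoderm on the y axis, for the v7.1 table (left) and the v9.1 table (right). Coloured points are the members by symbol. In v7.1 the trim36, plin2, pcsk6, bicc1 and vegt points lie between 3.87 and 5.50, wnt11b lies at 1.57, and both zfp36l2 points lie below 0.

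trim36 encodes a RING-type ubiquitin ligase that, in Xenopus, is needed for the vegetal microtubules of cortical rotation. It had the largest fold change of the members. Its gene model Xelaev15043509m.g, deposited under the name trim36.L, stood at 56.9, 58.5 and 84.6 CPM in endoderm replicates 1, 2 and 3 and at 3049, 3079 and 2886 CPM in PGC replicates 1, 2 and 3. All PGC libraries were far above all endoderm libraries, and the highest endoderm value was in the shallowest library. The means were 66.7 ± 15.5 CPM in endoderm and 3005 ± 104 CPM in PGCs. The log2 fold change was 5.50 ± 0.15 (SE), a 45.3-fold difference with an edgeR adjusted p of 9.67e-12, and rank 65 from the highest of 7902 gene models. With library scaling that follows expression level (lowess offsets) the log2 fold change was 6.61. Only 1 related gene with a COS box, fsd1 (Xelaev18006112m), was found in v9.1. Its log2 fold change was -1.09, and it did not pass the test. In v7.1 the 1 gene found was mid1 (Xelaev15010046m.g), a COS-box ubiquitin ligase that binds microtubules, which fell by 0.65 ± 0.20 (adjusted p 0.0292, edgeR). That call was lost with total counts (-0.46), under lowess offsets (-0.45), without endoderm replicate 1 or 2 and without PGC replicate 1 or 2.

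plin2 encodes perilipin 2, a coat protein of lipid droplets. Known in Xenopus as Fatvg, it is needed there for cortical rotation and for the gathering of germ plasm. The gene model Xelaev15069945m.g, deposited as plin2.b, stood at 60.2, 43.1 and 36.6 CPM in the endoderm libraries and at 914.6, 1063 and 1068 CPM in the PGC libraries. The groups were wide apart, and PGC replicate 1 was the lowest of its group. The means were 46.6 ± 12.2 and 1015 ± 87.0 CPM, and the log2 fold change was 4.44 ± 0.18, a 21.6-fold difference with an edgeR adjusted p of 5.65e-10. It was 5.15 under lowess offsets. Other genes of lipid droplets gave a mixed picture. Of 11 v9.1 gene models, 3 were higher (27.3%) and 1 was lower (9.09%) in PGCs, with a median log2 fold change of 0.53. In v7.1 the counts were 2 (22.2%) and 0 of 9. Over the whole tables the shares were 12.6% higher and 16.8% lower in v9.1 and 12.8% and 16.1% in v7.1. The largest called rise was that of acsl1 in v7.1 (Xelaev15046920m.g), by 2.32 ± 0.11, from 294 ± 33.7 to 1467 ± 109 CPM. It is also in the list of other vegetally localized RNAs. dgat2 (Xelaev18014067m), which makes triglyceride, rose by 1.14 ± 0.15 on the log2 scale, from 155 ± 28.4 to 341 ± 8.53 CPM. Both acsl4 gene models, of a fatty acyl-CoA synthetase, were called higher, Xelaev18027789m by 1.52 ± 0.31 and Xelaev18029864m by 0.74 ± 0.20. The latter call was lost without endoderm replicate 1 (0.74) and without PGC replicate 2 (0.58) or 3 (0.67). cideb (Xelaev18014619m), of a family that promotes droplet growth, fell by 1.97 ± 0.43.

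pcsk6 encodes the proprotein convertase PACE4, which cleaves precursors of growth factors of the TGF-beta superfamily such as Nodal and Vg1. The v9.1 table holds a pair of gene models under this symbol, and they behaved differently. Xelaev18018420m stood at 43.7, 47.4 and 46.8 CPM in endoderm and 967.6, 977.7 and 967.9 CPM in PGCs. The libraries of each group lay close together, with means of 46.0 ± 1.97 and 971 ± 5.76 CPM. Its log2 fold change was 4.40 ± 0.11, a 21.1-fold difference (adjusted p 6.73e-11, edgeR; 5.28 under lowess offsets).

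The other pcsk6 gene model, Xelaev18020450m, was counted far less. It stood at 12.7, 13.7 and 6.12 CPM in endoderm, from 327, 247 and 54 reads, and at 26.1, 19.3 and 28.6 CPM in PGCs, from 492, 318 and 465 reads. PGC libraries were above endoderm libraries, but the spread within groups was wide. The means were 10.9 ± 4.13 and 24.7 ± 4.78 CPM. The log2 fold change of 1.18 ± 0.52 did not pass the edgeR test (adjusted p 0.114, 0.0475 to 0.295 over 13 alternatives besides a 2-fold test). It passed only when libraries were scaled by total counts, at 1.50 with an edgeR adjusted p of 0.0475, a scaling that also moved the median of all v9.1 gene models from 0.07 to 0.39. In the authors' deposited table its false discovery rate was 0.105.

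The pcsk6 gene models of v9.1 differed in their response. In a fit over all 3512 symbols with exactly 2 v9.1 gene models, the log2 fold change of Xelaev18018420m exceeded that of Xelaev18020450m by 3.20 ± 0.32, a 9.17-fold difference with an edgeR adjusted p of 0.000778. A difference of this kind was called for 9.74% of the pairs. It was 3.0 to 3.5 when any 1 library was left out. In v7.1 both gene models named pcsk6.L rose: Xelaev15057113m.g by 4.68 ± 0.17 on the log2 scale, from 48.5 ± 12.2 to 1236 ± 20.4 CPM, and Xelaev15057114m.g by 4.74 ± 0.29, from 15.6 ± 6.18 to 414 ± 45.5 CPM. They share 1 gene name and 1 JGI model name, and their difference was -0.12 ± 0.25 (adjusted p 0.852 in the edgeR pair test, 1.47% of 1022 pairs called). With 5343 reads or more in each PGC library, neither matched the low-count v9.1 gene model. Which copy of the gene Xelaev18020450m represents is not given in the sources used here.

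Other proprotein convertases rose less than pcsk6 Xelaev18018420m or did not pass the test. Of 8 v9.1 gene models, 3 were higher in PGCs (37.5%, beside 12.6% of the whole table) and 0 lower. Log2 fold changes ran from 0.15 to 1.50 over all 8. In v7.1 the counts were 1 (10%, beside 12.8% of that table) and 0 of 10. furin, the general convertase of the secretory pathway, was higher by 1.50 ± 0.23 (Xelaev18018314m, 49.6 ± 9.34 to 140.2 ± 26.3 CPM) and by 0.85 ± 0.20 (Xelaev18020545m). pcsk5 (Xelaev18006907m) was higher by 0.80 ± 0.25, a call lost without endoderm replicate 1 (0.76) or 3 (0.79) and without PGC replicate 2 (0.56) or 3 (0.82). The other pcsk5 gene model, at 0.30, was not called. In the Nodal and Vg1 pathway, into which pcsk6 feeds, 1 of 16 v9.1 gene models was higher (6.25%) and 3 were lower (18.75%). Over the whole v9.1 table these shares were 12.6% and 16.8%, so the share lower was near that of the table. Both counts of the list were 3 under total-count scaling. In v7.1 the split was the other way, with 3 of 15 higher (20%) and 1 lower (6.67%), beside 12.8% and 16.1% of that table. In v9.1 those lower were receptors. acvr2b, a type II receptor, fell by 2.12 ± 0.23 (Xelaev18030648m) and 1.09 ± 0.15 (Xelaev18032808m), the latter to -0.54 under lowess offsets. acvr1c, a type I receptor, fell by 2.63 ± 0.67, a call lost without PGC replicate 2 (-2.27). acvr1b (Xelaev18013287m), also type I, was called higher at 0.59 ± 0.20, and the call was lost without any 1 library other than endoderm replicate 2, at log2 fold changes from 0.48 to 0.66. The other acvr1b gene model, at -0.40, was not called. The 3 called higher in v7.1 were tdgf1.1, a Nodal co-receptor (3.02 ± 0.42), smad7, an inhibitory Smad (1.65 ± 0.45), and cer1, a secreted antagonist (0.87 ± 0.27). The smad7 call was lost without PGC replicate 1, and that of cer1 without endoderm replicate 1 or 3 and without PGC replicate 2 or 3. The other v7.1 gene models of smad7 (0.54) and cer1 (-2.04) were not called. The gene model lower in v7.1 was of acvr2b (-2.38 ± 0.36).

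**Figure D2:**
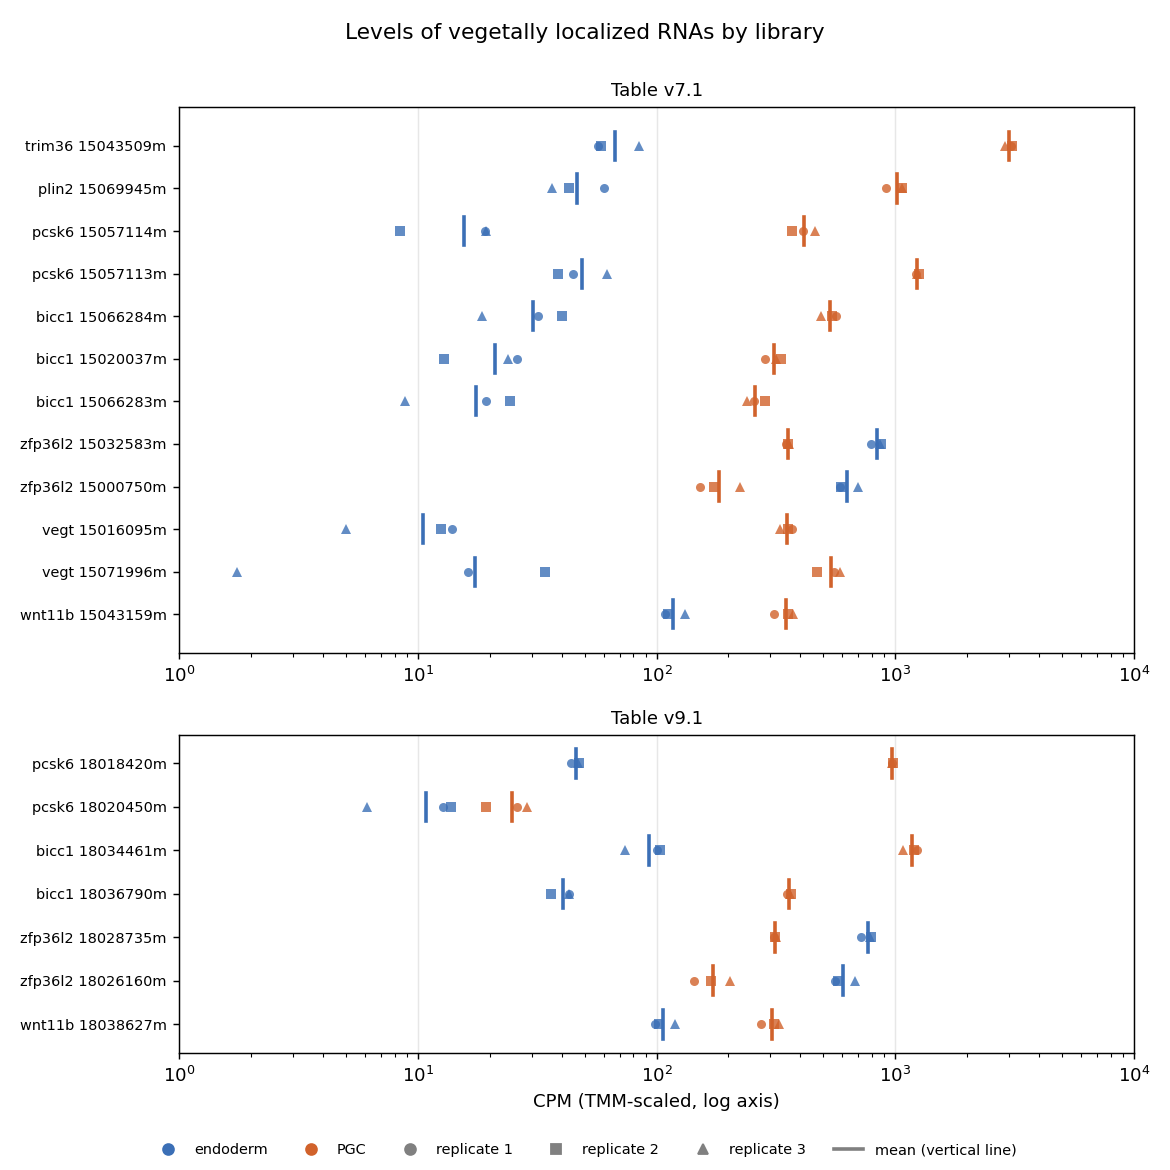
Level of each gene model in each library, in CPM on a log axis, for v7.1 (top) and v9.1 (bottom). Blue is endoderm and orange is PGC, the marker shape gives the replicate, and vertical lines are group means. Labels give the symbol and the digits of the gene model. The endoderm points of vegt.S (lowest vegt row) run from 1.75 to 34.2 CPM, while its PGC points run from 468 to 587 CPM.

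bicc1 encodes Bicaudal C, an RNA-binding protein with KH and SAM domains that represses translation and acts in endoderm formation in Xenopus. Both v9.1 gene models were higher in PGCs. Xelaev18034461m stood at 100.7, 103.7 and 73.7 CPM in endoderm and 1230, 1199 and 1079 CPM in PGCs. The third replicate was the lowest of each group, and the groups were far apart. Its log2 fold change was 3.65 ± 0.15, a 12.6-fold difference from 92.7 ± 16.5 to 1169 ± 79.8 CPM (adjusted p 2.46e-09, edgeR; 4.61 under lowess offsets). Xelaev18036790m stood at 43.0, 36.2 and 43.0 CPM in endoderm and 350.8, 364.5 and 361.3 CPM in PGCs. Its log2 fold change was 3.14 ± 0.15, an 8.82-fold difference (adjusted p 1.57e-08, edgeR). The pair differed by 0.52 ± 0.20 on the log2 scale, which did not pass the edgeR test over all pairs (adjusted p 0.147). In v7.1 the gene models Xelaev15066284m.g and Xelaev15066283m.g, both deposited as bicc1.a, rose by 4.13 ± 0.24 and 3.87 ± 0.31, and Xelaev15020037m.g, deposited as bicc1.b, by 3.89 ± 0.26. Both bicc1.a gene models also share a JGI model name. The differences between these 3 were -0.05 to 0.26, and none was called. Of all 282 pairs within symbols of 3 gene models, 0.00% were called by edgeR.

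Partners of bicc1 and cilium genes, with which bicc1 works in vertebrate kidney and left-right patterning, had 4 of 10 v9.1 gene models higher in PGCs and 0 lower. The share higher was 40%, beside 12.6% of the whole table, of which 16.8% was lower. In v7.1, 1 of 8 was higher (12.5%, beside 12.8% of the whole table) and 0 lower. The v9.1 count was 2 under lowess offsets, 2 without PGC replicate 1 or 2 and 1 without PGC replicate 3. pkd2 (Xelaev18005800m), a cilium ion channel, rose by 0.95 ± 0.21, from 59.8 ± 10.7 to 115.9 ± 8.08 CPM. ift88 (Xelaev18016239m), of the intraflagellar transport machinery, was called at 1.37 ± 0.40, and the call was lost without PGC replicate 1 (1.36) or 3 (1.21).

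zfp36l2 went the other way. It encodes a CCCH zinc-finger protein that binds AU-rich elements of mRNAs and recruits the CCR4-NOT deadenylase complex, which starts their decay. Xelaev18028735m stood at 720, 790 and 786 CPM in endoderm and 309, 313 and 316 CPM in PGCs. Every PGC library was below every endoderm library, with means of 313 ± 3.52 and 765 ± 39.4 CPM. The gene model fell by 1.29 ± 0.10 on the log2 scale, 2.45-fold (adjusted p 1.12e-06, edgeR). Under lowess offsets it stood at -0.45 with an edgeR adjusted p of 0.00537. Its counts were the same in all 6 libraries as those of Xelaev15032583m.g in v7.1, deposited as zfp36l2.S, which fell by 1.24 ± 0.10. The latter missed the threshold in a test against a 2-fold change (edgeR glmTreat adjusted p 0.0518).

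The other zfp36l2 gene model, Xelaev18026160m, stood at 561, 576 and 675 CPM in endoderm and 143, 169 and 202 CPM in PGCs. Replicate 3 was the highest of both groups, and the groups did not overlap. The gene model fell by 1.82 ± 0.15, 3.52-fold (adjusted p 1.73e-06, edgeR), and stood at -1.10 under lowess offsets. The v7.1 gene model Xelaev15000750m.g, deposited as zfp36l2.b, fell by 1.78 ± 0.16. The difference between both zfp36l2 gene models of v9.1 was 0.53 ± 0.16 on the log2 scale and did not pass the edgeR pair test (adjusted p 0.0793).

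Other CCCH zinc-finger and CCR4-NOT genes were split in v9.1, with 7 of 26 gene models higher and 9 lower in PGCs. These were 26.9% and 34.6% of the list, beside 12.6% and 16.8% of the whole table. The split was 9 higher and 6 lower under lowess offsets, and 9 and 7 with total counts, scalings that also moved the calls of the whole table. The largest fitted changes were in btg4, at 5.93 ± 1.58 (Xelaev18035485m) and 5.37 ± 1.26 (Xelaev18037367m). These had 15 and 57 reads over the endoderm libraries, at 0.194 ± 0.337 and 0.739 ± 1.28 CPM. Over 14 alternatives the values ran from 5.34 to 10.8 and from 4.77 to 12.1, so their size depends on the fit. The Xelaev18035485m call was lost without PGC replicate 2. parn (Xelaev18045154m), a poly(A)-specific ribonuclease of oocytes, rose by 3.64 ± 0.20, from 40.8 ± 11.3 to 513 ± 20.6 CPM. tob2 (Xelaev18023643m), which binds the deadenylase, rose by 1.82 ± 0.13, from 121 ± 5.30 to 427 ± 18.3 CPM. Its other gene model, Xelaev18025667m, fell by 1.25 ± 0.22, from 102 ± 12.9 to 42.7 ± 3.89 CPM. The closest relatives of zfp36l2 were among those lower: zfp36l1 fell by 1.71 ± 0.22 (Xelaev18002688m) and 1.50 ± 0.28 (Xelaev18040107m), and zfp36 by 1.61 ± 0.38 (Xelaev18039412m). The zfp36 call was lost without endoderm replicate 1, and its other gene model, at -0.34, was not called. These relatives and the second tob2 gene model were named after their values were seen, and under lowess offsets they stood between -1.71 and -1.17 and were still called by edgeR. In v7.1 the list had 4 of 24 gene models higher (16.7%) and 7 lower (29.2%), beside 12.8% and 16.1% of that table. Under lowess offsets these counts were 5 and 4.

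vegt encodes the maternal T-box transcription factor that starts endoderm and mesoderm formation. Its v7.1 gene models were close to trim36 in fold change. Xelaev15016095m.g, deposited as vegt.L, stood at 13.9, 12.5 and 4.996 CPM in endoderm and 369, 355 and 329 CPM in PGCs. The groups were far apart, and the lowest endoderm value came from the shallowest library. The log2 fold change was 5.03 ± 0.31, a 32.6-fold difference with an edgeR adjusted p of 3.5e-08. Xelaev15071996m.g, deposited as vegt.S, stood at 16.2, 34.2 and 1.75 CPM in endoderm, from 380, 560 and 14 reads, and at 554, 468 and 587 CPM in PGCs. The endoderm libraries spread widely, but each lay below all PGC libraries. The log2 fold change was 4.90 ± 0.60, a 29.9-fold difference with an edgeR adjusted p of 3.24e-05. Without endoderm replicate 2 it was 5.76, a 54.3-fold difference. The vegt.S fold change was lower than that of vegt.L by 0.13 when each was fitted alone and higher by 0.36 ± 0.60 in the edgeR pair test (adjusted p 0.822), so the sign of the difference is not resolved.

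Zygotic targets of vegt and T-box genes were split in v9.1. Of 28 gene models, 7 were higher (25%) and 8 lower (28.6%) in PGCs, beside 12.6% and 16.8% of the whole table. The split was 9 and 5 when scaled by total counts, and 9 and 2 under lowess offsets. Both scalings also moved the calls of the whole table, so these counts are not comparable with its main-test shares. mixer (Xelaev18026298m), a homeobox gene of endoderm, rose by 3.15 ± 0.37, from 14.5 ± 8.22 to 127 ± 19.7 CPM. gata4 (Xelaev18030192m), a zinc-finger gene of endoderm and heart, rose by 1.53 ± 0.15. tbx1 (Xelaev18010548m), a T-box gene of pharyngeal tissue, rose by 1.50 ± 0.38, from 16.4 ± 4.86 to 46.4 ± 8.31 CPM. The 8 lower gene models, named after their values were seen, were of a2m, gata6, foxa4, sox17a and gata5, of which sox17a and gata6 were also among the endoderm markers above. a2m fell by 1.49 ± 0.03, from 19740.5 ± 60.2 to 7025 ± 132 CPM. Both gene models of each of gata6 (-1.33 and -0.74), foxa4 (-0.96 and -0.57) and sox17a (-0.77 and -0.48) were lower, as was that of gata5 (-0.86). Under lowess offsets a2m turned to 0.54 (adjusted p 3.61e-07, edgeR) and the less changed foxa4 to 0.36 (adjusted p 0.0202, edgeR). Both were then called higher in PGCs. The sox17a gene models turned to 0.051 and 0.26 and were not called. The lower calls that held under lowess offsets were those of gata5 (-0.55) and of 1 gata6 gene model (-0.45). The weaker sox17a, gata6 and foxa4 calls were also lost with total counts, and that sox17a call without endoderm replicate 1 or 3 or PGC replicate 2 or 3. In v7.1 the split was 6 higher (20.7%) and 9 lower (31.0%) of 29, beside 12.8% and 16.1% of that table. Under lowess offsets it was 8 and 3.

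wnt11b encodes the secreted Wnt ligand whose maternal RNA is vegetal in Xenopus eggs and acts in dorsal axis formation. Xelaev18038627m stood at 98.7, 102 and 119 CPM in endoderm and 273, 309 and 327 CPM in PGCs. The PGC libraries were all higher, and within each group the spread was narrow. The log2 fold change was 1.51 ± 0.15, a 2.84-fold difference with an edgeR adjusted p of 1.04e-05, at rank 1547 of 10364 in v9.1. The v7.1 gene model Xelaev15043159m.g, deposited as wnt11b.L, differed from it by 53 reads at most in any library and rose by 1.57 ± 0.16. Among other genes of Wnt11 and maternal Wnt signalling, 1 of 27 v9.1 gene models was higher (3.70%) and 9 were lower (33.3%). Over the whole table these shares were 12.6% and 16.8%. The split was 2 and 6 when scaled by total counts, and 2 and 3 under lowess offsets, where the calls of the whole table moved as well. In v7.1 it was 2 and 5 of 29 (6.90% and 17.2%, beside 12.8% and 16.1%), and 4 and 3 under lowess offsets. gpc4, a glypican that takes part in Wnt11 signalling in Xenopus, fell by 1.37 ± 0.09 (gpc4.L, 1881 ± 69.9 to 728 ± 80.8 CPM), a call that was lost under lowess offsets (-0.19, adjusted p 0.164, edgeR). ror2 (Xelaev18010203m), a receptor of non-canonical Wnt ligands, fell by 1.34 ± 0.09 and stood at -0.32 under lowess offsets. The 1 gene model called higher was of fzd8, a Wnt receptor, at 2.06 ± 0.67. Its call was lost under lowess offsets, without endoderm replicate 3 and without any 1 PGC library, at log2 fold changes from 1.77 to 2.26. The other fzd8 gene model, at 0.16, was not called.

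**Figure D3:**
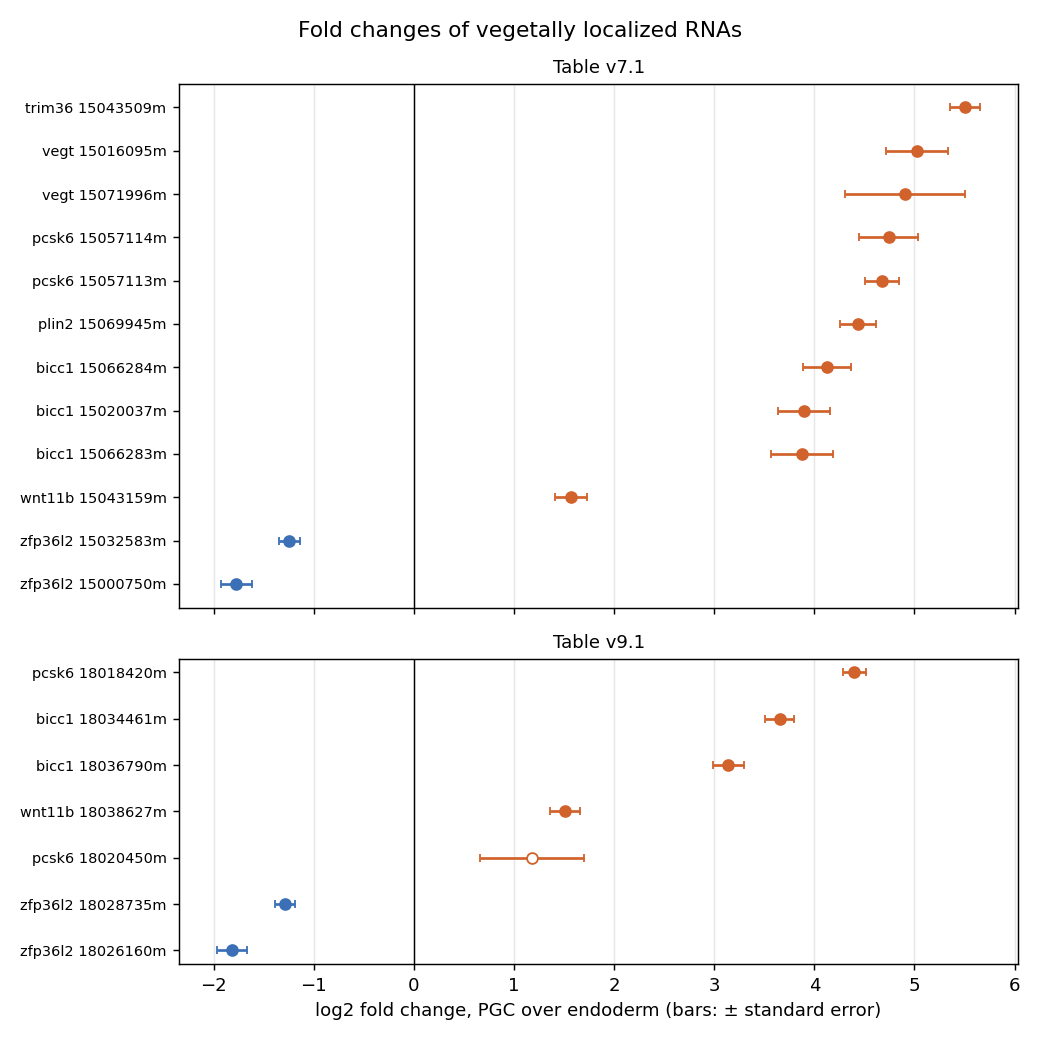
Log2 fold change of PGC over endoderm for each gene model, with bars of 1 standard error, for v7.1 (top) and v9.1 (bottom), ordered by value. Orange is higher and blue lower in PGCs, and the open circle marks the pcsk6 gene model that did not pass the test. In v7.1 trim36 is at the top with 5.50, vegt follows at 5.03 and 4.90, the pcsk6, plin2 and bicc1 gene models lie between 3.87 and 4.74, and zfp36l2 lies at -1.24 and -1.78.

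In order of fold change in v7.1 the gene models ran from trim36 through vegt, pcsk6 and plin2 to bicc1. Neighbours in this stretch differed by 0.02 to 0.47 on the log2 scale, each less than 2 combined standard errors, so the order of neighbours is not resolved by these libraries. Of all 36 pairs of gene models in the stretch, 13 differed by more than that. Combined standard errors treat gene models as independent, although all were measured in the same libraries, and no adjustment was made over the pairs. They describe the differences and are not a test. trim36 exceeded plin2 by 1.07 and the pcsk6 gene models by 0.76 and 0.82, and it exceeded the bicc1 gene models by 1.38 to 1.63. The steps from bicc1 to wnt11b (2.30) and from wnt11b to zfp36l2 (2.81) exceeded that spread, as did the step between both zfp36l2 gene models (0.53), although their difference did not pass the edgeR pair test (adjusted p 0.194). In v9.1 all neighbours differed by more than 2 combined standard errors except wnt11b and the low-count pcsk6 gene model (0.33), but the neighbours within bicc1 and within zfp36l2 did not pass the pair test either. Counts summed over the gene models of a symbol gave log2 fold changes of 4.14 ± 0.11 for pcsk6, 3.53 ± 0.11 for bicc1 and -1.49 ± 0.09 for zfp36l2 in v9.1, and of 4.99 ± 0.46 for vegt in v7.1. Together the 12 v7.1 gene models took 0.912 ± 0.00702% of the counts of PGC libraries and 0.174 ± 0.00723% of those of endoderm libraries (SD, n = 3). The 7 v9.1 gene models, without trim36, plin2 and vegt, took 0.370 ± 0.00330% and 0.149 ± 0.00587%. The coefficient of variation between libraries was larger in endoderm than in PGCs for 11 of 12 members in v7.1 and 6 of 7 in v9.1, where over all gene models it was larger in endoderm for 52.0% and 53.6%. Most members had fewer reads in endoderm, and the shares over all gene models were not matched for level. The part of low counts in this spread was not tested.

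Other vegetally localized and germ plasm RNAs were mostly higher in PGCs too. Of 22 v9.1 gene models of 14 symbols, 17 were higher (77.3%) and 2 lower (9.09%), with a median log2 fold change of 3.53. Over the whole table the shares were 12.6% and 16.8%. The list holds the PGC markers used above, and the largest changes were in grip2 (8.27 ± 0.28 and 8.21 ± 0.06), nanos1 (7.75 ± 0.15) and dazl (7.66 ± 0.07). Both lower gene models were of dhh, a Hedgehog ligand (-2.02 and -1.47), named after its values were seen. In v7.1 the counts were 15 higher (78.9%) and 1 lower (5.26%) of 19, beside 12.8% and 16.1% of that table. The RNAs of proteins known to carry or bind vegetal RNAs in the oocyte had another direction. Of their 14 v9.1 gene models, 2 were higher (14.3%, beside 12.6% of the whole table) and 8 lower (57.1%, beside 16.8%), with a median of -0.996. The split was 3 and 6 under lowess offsets, and 0 and 9 of 18 in v7.1 (0% and 50%, beside 12.8% and 16.1%). kif5b (Xelaev18032872m), the kinesin-1 heavy chain, fell by 1.72 ± 0.12, from 511 ± 34.0 to 155 ± 10.7 CPM. dazap1 (Xelaev18009761m), an hnRNP-like protein that binds the gdf1 localization element in Xenopus, fell by 1.45 ± 0.12, from 499 ± 35.8 to 182 ± 11.7 CPM. igf2bp3 (Xelaev18000039m), known in Xenopus as Vg1RBP, fell by 1.42 ± 0.15, from 595 ± 97.0 to 223 ± 28.5 CPM. Under lowess offsets these stood at -1.07, -0.79 and -0.68, and each was still called by edgeR. The gene models called higher in v9.1 were of elavl2 (Xelaev18010034m, 1.53 ± 0.46) and ddx6 (0.56, named after its values were seen). The elavl2 call was lost under lowess offsets (1.27), without endoderm replicate 1 or 2 and without PGC replicate 1 or 2. The other v9.1 gene models of elavl2 (1.90) and ddx6 (-0.27) were not called. Over all context lists, 45 of 161 v9.1 gene models were higher (28.0%) and 40 lower (24.8%), beside 12.6% and 16.8% of the whole table. The median log2 fold change was 0.16, and the counts were 50 and 23 under lowess offsets.

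**Figure D4:**
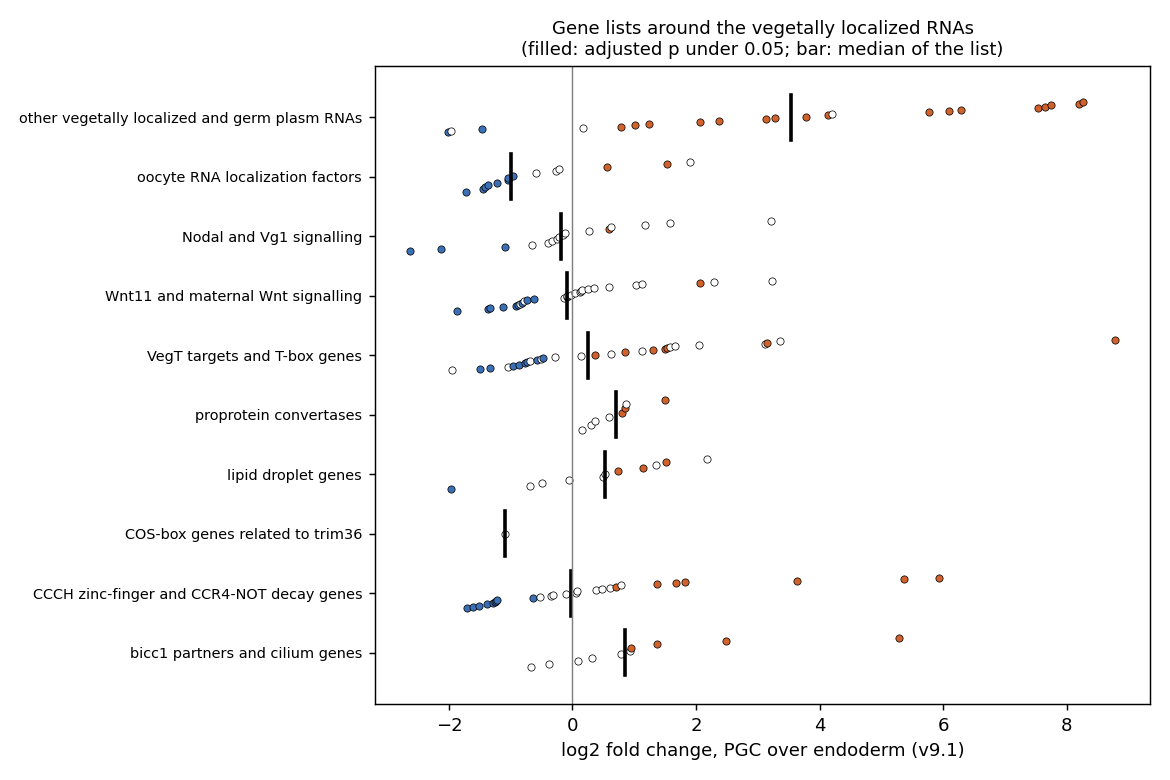
Log2 fold change of PGC over endoderm in v9.1 for the gene models of each list, without the members themselves. Filled orange points were higher and filled blue points lower in PGCs by the test, open points were not called, and black bars are medians. The list of other vegetal and germ plasm RNAs has its median at 3.53 and the list of localization factors at -0.996. The rightmost point of the vegt list is gsc, which had 2 reads over the endoderm libraries, so its position depends on the fit and is no estimate of its fold.

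The gene models whose pattern over the 6 libraries was most like that of a member were found by the root mean square difference of log2(CPM + 0.5) after each gene model was centred on its mean. All comparisons share the same libraries, and the values are descriptions. For pcsk6 Xelaev18018420m the closest were c1orf116 (0.125) and tspan1 (0.186), for bicc1 Xelaev18034461m parn (0.135) and hells (0.168), for zfp36l2 Xelaev18028735m btg1 (0.0236) and kpna3 (0.0343), and for wnt11b gata4 (0.0717) and hspa5 (0.112). In v7.1 the closest to trim36 were wee2 (0.286) and gsc (0.347), and those to plin2 were parn (0.194) and tbx5 (0.240). The closest to vegt.S were patl2 (0.378) and ccna1 (0.403). A parn gene model was the closest to bicc1 in v9.1 and to plin2 in v7.1, where bicc1 was not compared. The log2 fold changes were close, at 3.64 for parn and 3.65 for bicc1, and at 4.33 for parn and 4.44 for plin2. The other v9.1 parn gene model stood at 1.67. The added 0.5 CPM compresses differences of gene models near 0 in endoderm, and the fitted log2 fold change of wee2 was 6.99, against 5.50 for trim36. That of gsc was 8.84, and that of tbx5 was 8.71, against 4.44 for plin2. patl2 and ccna1 stood at 5.31 and 5.38, against 4.90 for vegt.S.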

How the data were processed

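RNA of 3 PGC and 3 endoderm libraries was counted per gene model by the authors, and the deposited tables hold whole-number read counts. The submitters' processing notes name edgeR 3.12.0, HTSeq 0.6.0, SAMtools 1.2, Bowtie2 2.2.6 and TopHat2 2.1.0 without saying what each did. How strand and reads that match several genes were treated is not given in the sources used here. Homeologs, other near-identical copies and overlapping genes are therefore uncertain. The smallest total over the 6 libraries was 150 in each deposited table. The deposited normalized signal was counts divided by 1 constant per library, and was not tested. The deposited log2 values, fold (ratio) values, likelihood ratio score and p-value and FDR columns are the authors' comparison, per the file headers, and only FDR is quoted.

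The main test was the quasi-likelihood test of edgeR 4.0.16 in R 4.3.3 (TMM scaling, filterByExpr at a count of 10 and a total of 15, which removed 0 gene models, 1 term for cell type, two-sided, Benjamini-Hochberg at 0.05 over each whole table). Unadjusted p was under 0.05 for 4012 of the v9.1 gene models and for 3063 of v7.1. Libraries of a group differed beyond sampling noise (chi-square per degree of freedom 36.6 to 74.0), so none was treated as a second deposit of another, which does not show that they come from separate cell collections. The steps were tested on simulated counts. Symbols of all 9 members matched RefSeq names of assembly Xenopus_laevis_v10.1, used for names only, and no coordinates or sequences were analysed here. All per-sample columns of counts could be mapped to a library.

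The members, marker genes and gene lists were chosen with earlier results of these data known. A further listed endoderm marker is not reported here. Named genes were all member gene models, of each list up to 4 called v9.1 gene models with the largest change and a mean of at least 5 CPM (values are given for part of them), and the 2 closest patterns of the most abundant gene model of each member symbol. Pairs of gene models under 1 symbol were compared by edgeR with library as a block. Alternatives were DESeq2 size factors, total-count scaling, lowess offsets, the DESeq2 1.42.0 Wald test, other filters, a replicate block, glmTreat against 2-fold and leaving out each library. Symbols with 3 gene models, the v7.1 patterns, the comparison of all pairs in the order, all list genes named from v7.1 and the lower genes named from the vegt and CCCH lists were added after seeing the data.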

Additional observations from a re-analysis of the deposited data

How the results depend on the processing

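No member gene model changed direction under any alternative run. Over the 7 v9.1 and 12 v7.1 gene models, calls changed in 2 cases. pcsk6 Xelaev18020450m passed under total-count scaling (1.50), and zfp36l2 Xelaev15032583m.g missed the threshold with glmTreat against 2-fold (-1.24), which left 1 v7.1 member called lower. glmTreat called 21 context gene models higher and 13 lower in v9.1 and 18 and 10 in v7.1. Under lowess offsets 23 were lower in v9.1 and 19 in v7.1. The pair difference of pcsk6 in v9.1 turned to -0.12 in the v7.1 table, where the gene models under that symbol are another pair. In v7.1 the pcsk6 difference was -0.36 to 0.13 when 1 library was left out, positive without endoderm replicate 2, and that of vegt was -0.23 to 1.04, negative without endoderm replicate 3. Neither was called in any of these fits, and the cause was not tested. Over all v9.1 gene models, calls were 1301 higher and 1739 lower, 1932 and 1117 with total counts, 1342 and 1198 under lowess offsets, and 406 and 416 with glmTreat. List counts under an alternative are therefore not comparable with the main-test shares of the table. Whole-table v7.1 calls under the alternatives are not given here. Same-numbered libraries of the groups did not deviate together (correlations of deviations -0.0144 to 0.0128), so the numbers were not taken as pairs. A fit with a replicate block called 1187 higher and 1682 lower in v9.1, and changed no call of a member. Leaving out 1 PGC library lowered the number called higher in v9.1 to 899 to 950. Of the vegt list, the lower calls of a2m, 1 foxa4 and both sox17a gene models turned to 0.54, 0.36, 0.051 and 0.26 under lowess offsets. There a2m and that foxa4 gene model were called higher in PGCs, and the cause was not tested. The fewest reads behind the low-count v9.1 pcsk6 and the vegt.S gene models were 54 and 14, in endoderm replicate 3. The part of depth in their spread was not tested.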
